A study of Mus musculus with 15 samples.

Results

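The genes described here are 10 transcripts widely used as markers of damaged kidney tubules: Havcr1, Lcn2, Spp1, Vcam1, Clu, Sox9, Sox4, Igfbp7, Anxa2 and Cp. They were listed by name as known markers of tubular injury, with no threshold on their values. The list was made with earlier results of these data known, so its share of calls is not independent of these data. All 10 were found among the 24421 genes of the deposited table. All 10 also passed the filter on low counts, which left 16752 genes. Their levels were set against each other in mouse kidneys 14 days after surgery in 3 groups of wild-type animals. UUO_Si kidneys had unilateral ureteral obstruction (UUO), the tying of 1 ureter, in mice fed a diet with a silicon-based agent (n = 6). UUO kidneys had the same operation on normal diet (n = 6), and sham kidneys had a sham operation on normal diet (n = 3). Sham mice on the agent were not among the samples, and a contrast of UUO_Si with sham therefore holds both the operation and the diet. The labels state neither sex nor age, nor the make-up of the agent.

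A healthy tubule cell carries the membrane transporters that reclaim solutes from the filtrate. After injury, surviving tubule cells lose part of this transport programme, divide and switch on genes of development, adhesion, iron handling and matrix. Several of the products are shed or secreted into urine, which is why they serve as injury biomarkers. Havcr1 encodes KIM-1, a surface receptor of injured proximal tubule cells that binds dying cells. Lcn2 encodes NGAL, a secreted carrier of iron-binding siderophores made by injured distal tubules and by neutrophils. Spp1 encodes osteopontin, a secreted adhesive phosphoprotein, and Clu encodes clusterin, a secreted chaperone. Cp encodes ceruloplasmin, a copper-containing ferroxidase, and Igfbp7 encodes a secreted protein that binds insulin-like growth factors and is known for cell cycle arrest. Vcam1 encodes an adhesion molecule that binds integrins on leukocytes, and Anxa2 encodes a calcium-dependent membrane-binding protein. Sox9 and Sox4 encode transcription factors of the SOX family that act in development and repair.

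The stretches before the start sites of 4 members are printed because their levels are set side by side below: Havcr1 with Spp1, the closest pair of members, and Anxa2 with Igfbp7, a pair of which Anxa2 alone passed the test against sham. RefSeq promoter windows on GRCm38.p6 existed for 7 of the 10 members, with 11 windows in all because some genes have several starts, and none for Vcam1, Clu and Sox9. Each window ran from 250 bases before to 50 bases after a start, and the 250 bases before the start are given 5′ to 3′ on the strand of the gene. Havcr1 lies on the plus strand (chr11:46739973-46740222, the first of 3 windows), as do Spp1 (chr5:104434861-104435110, the first of 2 windows) and Anxa2 (chr9:69453433-69453682). Igfbp7 lies on the minus strand (chr5:77408046-77408295). Capitals mark letters of the searched motifs.
Havcr1: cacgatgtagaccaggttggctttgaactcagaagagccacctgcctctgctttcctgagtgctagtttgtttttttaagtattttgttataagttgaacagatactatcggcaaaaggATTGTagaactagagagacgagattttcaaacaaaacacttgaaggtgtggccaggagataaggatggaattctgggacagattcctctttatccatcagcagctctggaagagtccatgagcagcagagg
Spp1: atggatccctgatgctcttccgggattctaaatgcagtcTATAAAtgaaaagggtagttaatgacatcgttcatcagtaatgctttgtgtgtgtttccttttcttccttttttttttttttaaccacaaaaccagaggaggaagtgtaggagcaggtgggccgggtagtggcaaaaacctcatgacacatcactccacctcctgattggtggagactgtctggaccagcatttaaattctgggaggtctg
Anxa2: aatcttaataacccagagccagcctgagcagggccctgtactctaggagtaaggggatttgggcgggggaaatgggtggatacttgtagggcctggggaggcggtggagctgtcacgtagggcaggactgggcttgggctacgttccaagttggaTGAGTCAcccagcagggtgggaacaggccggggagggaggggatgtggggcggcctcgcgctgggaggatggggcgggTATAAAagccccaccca
Igfbp7: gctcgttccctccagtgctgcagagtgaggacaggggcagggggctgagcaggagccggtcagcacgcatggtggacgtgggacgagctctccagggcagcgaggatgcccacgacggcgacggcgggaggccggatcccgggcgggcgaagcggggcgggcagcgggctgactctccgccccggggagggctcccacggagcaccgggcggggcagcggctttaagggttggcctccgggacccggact

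Both strands of the 300-base windows were searched for 5 motifs by their letters: AP-1 (TGANTCA), STAT (TTCNNNGAA), SOX (ACAAT), the TATA box (TATAAA) and NF-kB. Havcr1 held a SOX match starting 131 bases before its first start. Spp1 held a TATAAA match 211 bases before its first start. Anxa2 held an AP-1 match 95 bases before and a TATAAA match 17 bases before its start. Igfbp7 held none of the 5. Over the 11 windows, AP-1 letters occurred in 3, in a window each of Havcr1, Anxa2 and Cp. For comparison, they occurred in 7.81% of all 32851 mouse windows. SOX letters occurred in 3 of the 11 windows against 31.02% of all windows, and TATAAA in 3 of the 11 against 13.6%. STAT and NF-kB letters occurred in none of the 11, against 8.30% and 5.55% of all windows.

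Total counts, in units of 1000000, were 7.75 to 11.5 in UUO_Si libraries, 11.2 to 15.4 in UUO libraries and 5.53 to 8.31 in sham libraries. Codes in the sample titles fall into series of 1 group each: 4 and 7 in UUO_Si, 3 and 6 in UUO, and 1 in sham. The labels do not say what these codes mark. In 4 libraries (UUO_Si replicate 6, UUO replicates 5 and 6, and sham replicate 3) 785 to 1258 of 1456 olfactory and vomeronasal receptor genes had counts, against 83 to 136 in the other 11. They are called receptor-gene libraries here. The 3 obstructed ones are also all the libraries of code series 6 and 7, so the series and the receptor counts cannot be told apart among obstructed kidneys. The tissue label held in sham libraries, where 12 proximal tubule markers summed to 16767 to 20305 CPM (counts per 1000000 counts of a library) and none was at 0.

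Obstruction moved 9 of the 10 members. In UUO against sham 9 were higher, 0 were lower and Igfbp7 did not pass the test, at a background of 27.5% of tested genes called higher and 26.4% called lower (edgeR's quasi-likelihood test, adjusted p under 0.05). In UUO_Si against sham the same 9 were higher, at a background of 27.2% called higher and 25.5% called lower. These comparisons share their sham libraries, so the second is not independent of the first. The median log2 fold change of the 10 members was 3.30 in UUO and 3.32 in UUO_Si against sham, where the median of all tested genes was -0.04 in both. Without the 4 receptor-gene libraries the counts were again 9 and 9. For the 9 called members the groups did not overlap in CPM, at a background of 24.6% of genes wholly higher in UUO and 24% in UUO_Si. In bulk tissue fewer cells of a type and less RNA per cell cannot be told apart.

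**Figure D1:**
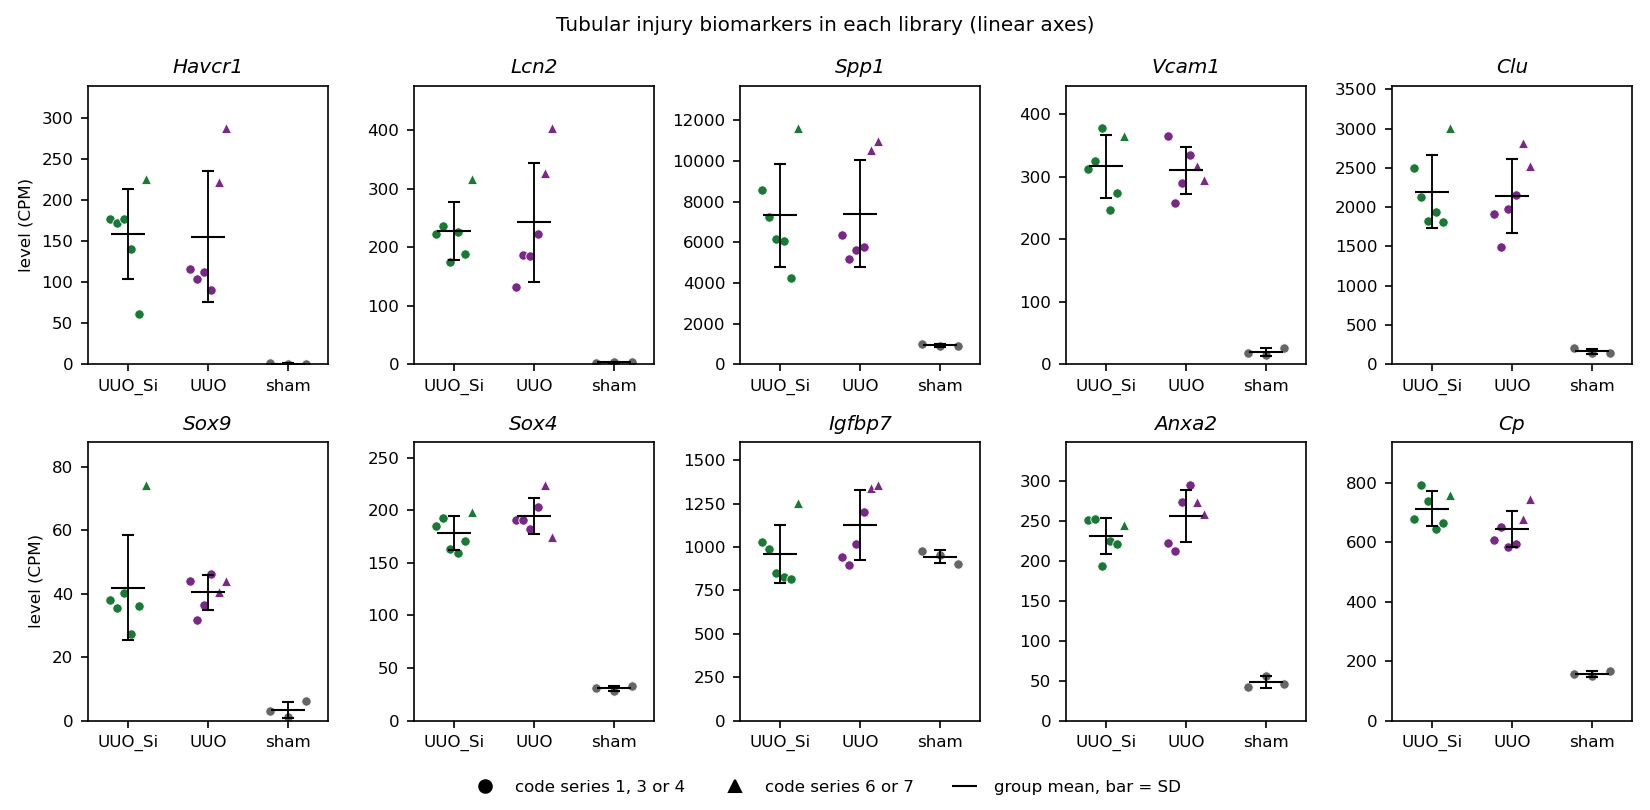
Level of each injury biomarker in CPM (linear axes from 0) in every UUO_Si (n = 6), UUO (n = 6) and sham (n = 3) library, with the group mean and SD. Triangles are code series 6 and 7. All obstructed libraries lie above all sham libraries for every gene except Igfbp7.

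Havcr1 had the largest fold change of the members. In UUO_Si kidneys it ranged from 61.7 CPM to 225 CPM with a median of 175 CPM, and in UUO kidneys from 91.1 CPM to 288 CPM with a median of 114 CPM. In sham kidneys it stood at 1.29, 0.320 and 0.568 CPM, which rested on 9, 2 and 3 counts. Even the lowest obstructed library was far above every sham library. The log2 fold change was 7.70 ± 0.69 (SE) in UUO_Si against sham (edgeR adjusted p = 7.50e-08) and 7.67 ± 0.69 in UUO against sham (edgeR adjusted p = 6.87e-08). Over all alternatives tried the UUO value ran from 6.98, without the receptor-gene libraries, to 8.63, with only code series 1, 6 and 7. Of the 31-base stretches in Havcr1 exons, 5.85% also occurred in Timd2, a neighbouring gene of the same family, so a small part of its reads could be split between them.

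Lcn2 came next. It ranged from 174 CPM to 317 CPM in UUO_Si kidneys (median 225 CPM) and from 133 CPM to 403 CPM in UUO kidneys (median 205 CPM). In sham kidneys it stood at 1.72, 4.63 and 3.41 CPM. The log2 fold change was 6.14 ± 0.44 in UUO_Si and 6.24 ± 0.44 in UUO against sham (edgeR adjusted p = 6.86e-09 and 4.90e-09). Neutrophil markers, which bear on Lcn2 because neutrophils carry its product, were low. The 8 of 9 listed markers in the table summed to 16.5 to 37.7 CPM in UUO_Si, 15.6 to 28.6 CPM in UUO and 3.36 to 19.1 CPM in sham libraries. Of the 5 that could be tested 2 were higher in each obstructed group, where 27.2% to 27.5% of all tested genes were called higher. Mpo, Retnlg and Camp, which encode neutrophil granule or secreted proteins, were at 0 in some libraries of every group. The part of neutrophils in the Lcn2 result was not tested.

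The secreted proteins Spp1 and Clu were already abundant in sham kidneys and rose further. Spp1 ranged from 4221 CPM to 11590.2 CPM in UUO_Si (median 6709 CPM), from 5152 CPM to 10964 CPM in UUO (median 6069 CPM) and stood at 1008, 903 and 885 CPM in sham. Its log2 fold change was 2.97 ± 0.34 in UUO_Si and 2.99 ± 0.34 in UUO against sham (edgeR adjusted p = 1.06e-06 and 9.12e-07). All 12 obstructed libraries were thus at least several times above any sham library. Clu ranged from 1809 CPM to 3002 CPM in UUO_Si (median 2034 CPM), from 1499 CPM to 2815 CPM in UUO (median 2064 CPM) and stood between 144 CPM and 205 CPM in sham. Its log2 fold change was 3.73 ± 0.24 in UUO_Si and 3.69 ± 0.24 in UUO against sham (edgeR adjusted p = 2.48e-09 and 2.03e-09). The annotated transcript Gm42793 overlaps Spp1 on the same strand and shares 14.3% of its 31-base stretches. No gene of that symbol was among the genes counted, so it has no level of its own here.

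Cp, the ferroxidase, showed the smallest fold change among the 9 members that rose. It ranged from 646 CPM to 794 CPM in UUO_Si (median 708 CPM), from 585 CPM to 747 CPM in UUO (median 629 CPM) and from 148 CPM to 166 CPM in sham. The log2 fold change was 2.19 ± 0.11 in UUO_Si and 2.04 ± 0.11 in UUO against sham (edgeR adjusted p = 2.08e-10 and 2.98e-10). Cp was also the most even member, with a highest level 1.36 times the lowest over the 12 obstructed libraries, while for Havcr1 that ratio was 4.66.

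Igfbp7 was the member that did not pass the test. It ranged from 818 CPM to 1254 CPM in UUO_Si (median 921 CPM), from 897 CPM to 1360 CPM in UUO (median 1111 CPM) and stood at 975, 955 and 905 CPM across the sham libraries. The 3 sham values lay inside the range of both obstructed groups. The log2 fold change was 0.02 ± 0.16 in UUO_Si (95% interval -0.31 to 0.36, edgeR adjusted p = 0.905) and 0.25 ± 0.16 in UUO against sham (95% interval -0.08 to 0.59, edgeR adjusted p = 0.188). In code series 6 and 7 Igfbp7 stood at 1254 to 1360 CPM, and in series 3 and 4 at 818 to 1200 CPM. When only series 1, 6 and 7 were fitted, an alternative chosen after these levels were seen, Igfbp7 passed in UUO against sham (0.77, edgeR adjusted p = 0.000389) and in UUO_Si against sham (0.68, edgeR adjusted p = 0.00331). That fit has 1 UUO_Si library, which was assumed to vary like the other groups, and in UUO against sham its median of all genes was shifted by 0.11.

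Vcam1 and Anxa2, the surface and membrane-binding members, also rose. Vcam1 ranged from 247 CPM to 377 CPM in UUO_Si (median 318 CPM), from 258 CPM to 365 CPM in UUO (median 305 CPM) and from 14.2 CPM to 26.0 CPM in sham. Its log2 fold change was 4.02 ± 0.21 in UUO_Si and 3.99 ± 0.20 in UUO against sham (edgeR adjusted p = 2.08e-10 and 1.81e-10). Anxa2 ranged from 193 CPM to 252 CPM in UUO_Si (median 234 CPM), from 212 CPM to 295 CPM in UUO (median 265 CPM) and from 42.6 CPM to 55.9 CPM in sham. Its log2 fold change was 2.26 ± 0.14 in UUO_Si and 2.41 ± 0.14 in UUO against sham (edgeR adjusted p = 1.28e-09 and 5.70e-10). Endothelial markers, which bear on Vcam1 because endothelium can carry it, summed to 714 to 881 CPM in UUO_Si, 690 to 1023 CPM in UUO and 772 to 911 CPM in sham, ranges that overlap. Of the 8 endothelial markers, all tested, 2 were higher and 4 lower in UUO_Si and 2 were higher and 3 lower in UUO against sham. None was at 0. Of all tested genes 27.2% were called higher and 25.5% lower in UUO_Si, and 27.5% and 26.4% in UUO.

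Both transcription factors rose, Sox9 from a low base. Sox9 ranged from 27.2 CPM to 74.3 CPM in UUO_Si (median 37.1 CPM) and from 31.7 CPM to 46.1 CPM in UUO (median 42.2 CPM). In sham it stood at 3.01, 1.12 and 6.06 CPM, highest in the sham receptor-gene library. The log2 fold change of Sox9 was 3.67 ± 0.39 in UUO_Si and 3.61 ± 0.39 in UUO against sham (edgeR adjusted p = 6.02e-07 and 6.27e-07). Sox4 ranged from 159 CPM to 199 CPM in UUO_Si (median 178 CPM), from 175 CPM to 224 CPM in UUO (median 191 CPM) and from 27.8 CPM to 32.8 CPM in sham. Its log2 fold change was 2.54 ± 0.11 in UUO_Si and 2.67 ± 0.12 in UUO against sham (edgeR adjusted p = 7.29e-11 and 4.18e-11). The antisense gene Gm26735 covers 54.3% of the 31-base stretches of Sox4, and without the strand setting of the counting its reads cannot be told apart from those of Sox4.

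Exact two-sided permutation tests of CPM gave p = 0.0238 for each of the 9 called members against sham in both obstructed groups, which is the smallest p that 6 against 3 libraries allow. For Igfbp7 the exact p was 1.0 in UUO_Si and 0.238 in UUO against sham.

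**Figure D2:**
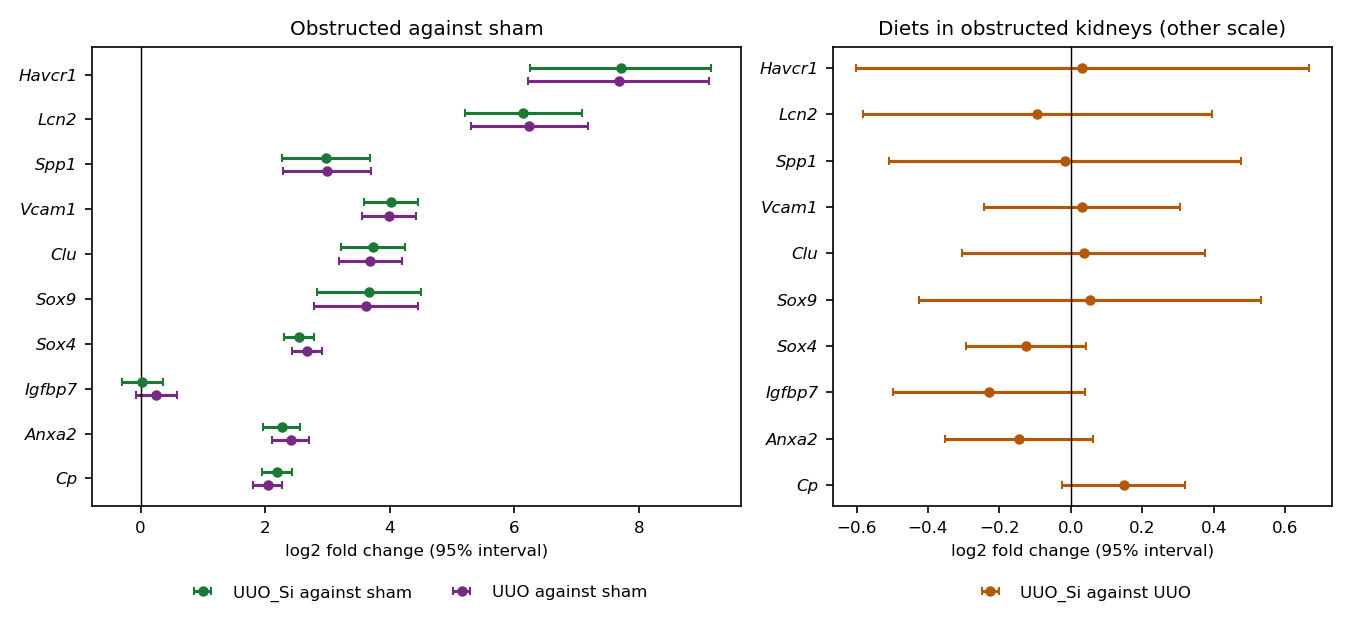
Log2 fold changes with 95% intervals from edgeR, with UUO_Si and UUO against sham on the left and UUO_Si against UUO on the right, on a narrower axis. Against sham 9 of the 10 intervals lie above 0 in each group, and between the diets all 10 include 0.

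Levels were put on a common footing by dividing CPM by the exon length of all annotated transcripts of a gene, which gives CPM per kilobase. By this level Spp1 led in UUO_Si (4439 ± 1543) and in UUO (4489 ± 1591; SD, n = 6 each), well clear of Igfbp7 (795 ± 139 and 932 ± 167). Clu (640 ± 137 and 624 ± 136) overlapped Igfbp7 in both groups. Lcn2, Cp, Havcr1 and Anxa2 formed the next stretch in UUO_Si, at 86.8, 74.6, 68.9 and 61.9 CPM per kilobase, with overlapping neighbours. In UUO the same 4 genes lay at 92.6 for Lcn2, 68.4 for Anxa2, 67.4 for Havcr1 and 67.3 for Cp, again with overlapping neighbours. Sox4 (37.2 and 40.6) overlapped Vcam1 (35.7 and 34.9), and Sox9 was lowest (10.1 and 9.78). In sham the order was Igfbp7 (782), Spp1 (565), Clu (48.4), Cp (16.4), Anxa2 (12.9) and Sox4 (6.39) CPM per kilobase, without overlap between neighbours. Vcam1 (2.205), Lcn2 (1.24), Sox9 (0.821) and Havcr1 (0.314) followed, each overlapping the next. Havcr1 thus stood last of the 10 in sham and level with Lcn2, Cp and Anxa2 in obstructed kidneys.

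The diet comparison asks whether the agent altered these markers in obstructed kidneys. No member passed the test in UUO_Si against UUO, at a background of 0% of genes called in either direction, and the edgeR adjusted p of every member was 0.999. At an unadjusted p under 0.05 edgeR gave 0 of the 10 members and 626 of all tested genes. DESeq2 called 2 genes, none of them a member, and limma-voom gave no call among the members. The median log2 fold change of the members was 0.01, against 0.00 for all tested genes. Every member overlapped between the diets, where 0.203% of tested genes did not.

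The 95% intervals limit how large a diet difference in these markers could have been. Cp was the member furthest above 0, with UUO_Si kidneys at 713 ± 59.3 CPM and UUO kidneys at 644 ± 61.7 CPM (SD, n = 6 each), with a log2 fold change of 0.15 (95% interval -0.02 to 0.32, exact permutation p = 0.0866). Igfbp7 was furthest below, with UUO_Si kidneys at 961 ± 168 CPM and UUO kidneys at 1126 ± 202 CPM, with a log2 fold change of -0.23 (95% interval -0.50 to 0.04, exact permutation p = 0.152). The 8 fibroblast markers were all below 0 in UUO_Si against UUO, with a median log2 fold change of -0.55 (-0.36 without the 4 receptor-gene libraries), 7 of them at an unadjusted p under 0.05 and none past the adjusted threshold, and their part in the Igfbp7 value was not tested. Anxa2 lay at -0.15 (-0.35 to 0.06) and Sox4 at -0.13 (-0.29 to 0.04). For Vcam1 the interval was -0.24 to 0.31 and for Clu -0.30 to 0.38. Wider intervals belonged to Sox9 (-0.42 to 0.53), Spp1 (-0.51 to 0.48), Lcn2 (-0.58 to 0.40) and Havcr1 (-0.60 to 0.67), which leave room for moderate differences in either direction. The exact permutation p of the other 6 members ran from 0.768 to 0.957, where 6 against 6 libraries can reach 0.00216.

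For Havcr1 the diet difference varied between fits of different code series, and the fits were not compared with each other by a test. Within series 4 against 3 (5 UUO_Si and 4 UUO libraries) its log2 fold change was 0.46 (edgeR adjusted p = 0.9997), and within series 7 against 6 (1 and 2 libraries) it was -0.16. Over all 12 libraries it was 0.03. Lcn2 likewise lay at 0.20 within series 4 against 3 and at -0.19 within series 7 against 6, and at -0.09 over all. Spp1 lay at 0.17, 0.13 and -0.02 in these fits. Sox9 lay at -0.16, 0.83 and 0.05, the second resting on the single UUO_Si library of series 7. No member passed the test between diets in any of these fits.

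Among the 12 obstructed libraries the members did not vary alike. Havcr1 stood at 223 to 288 CPM in the 3 libraries of code series 6 and 7, against 61.7 to 177 CPM in the 9 of series 3 and 4. Lcn2 stood at 317 to 403 CPM against 133 to 237 CPM, and Spp1 at 10516 to 11590.2 CPM against 4221 to 8585 CPM. Clu (2524 to 3002 CPM against 1499 to 2497 CPM) and Igfbp7 were likewise wholly higher there, whereas the other 5 members overlapped between these libraries. The correlations that follow pool both sets of libraries, and those between members and with marker lists are therefore also given for the 9 of series 3 and 4 alone.

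Of the 45 pairs of members, 42 had a positive Pearson r of log2 CPM, and 10 passed an adjusted p of 0.05, all positive (two-sided permutation test, adjusted over the 45 pairs). By Spearman's rho 3 passed. Within the 9 libraries of series 3 and 4 none of the 45 passed by Pearson's r. The closest pair was Havcr1 and Spp1, with r = 0.916 (adjusted permutation p = 0.00135) and rho = 0.916 (adjusted permutation p = 0.00405). Without the 2 libraries farthest from the median of Havcr1 it was 0.864. It was 0.873 within UUO_Si and 0.966 within UUO, and 0.860 in the 9 libraries (adjusted permutation p = 0.0507). Spp1 and Clu had r = 0.896 (adjusted permutation p = 0.00517, rho = 0.832), and 0.725 in the 9 libraries (adjusted permutation p = 0.293).

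Clu and Igfbp7 had r = 0.818 (adjusted permutation p = 0.0210, rho = 0.888), and 0.583 in the 9 libraries. Pairs with Lcn2 were lower without series 6 and 7. Its r over the 12 libraries was 0.783 with Spp1, 0.778 with Igfbp7, 0.764 with Clu and 0.701 with Havcr1 (adjusted permutation p = 0.0217, 0.0217, 0.0237 and 0.0499). In the 9 libraries these were 0.263, 0.271, 0.449 and 0.211. The r of Spp1 with Igfbp7 was 0.800 over all 12 (adjusted permutation p = 0.0217) and 0.390 in the 9. Igfbp7 and Anxa2 showed the opposite pattern, with r = 0.750 over all (adjusted permutation p = 0.0271) and 0.876 in the 9 libraries (adjusted permutation p = 0.0507). Vcam1 and Sox9 likewise had r = 0.727 over all (adjusted permutation p = 0.0237) and 0.848 in the 9 libraries. Their r was 0.829 within UUO and 0.725 within UUO_Si. Without the 2 libraries farthest from the median of Vcam1 it was 0.541 (permutation p = 0.0926), so its size depends on those. Vcam1 with Lcn2 (r = -0.07), Sox4 with Cp (-0.07) and Anxa2 with Cp (-0.21) were the 3 pairs below 0, and in the 9 libraries these lay at -0.39, -0.24 and -0.40. Leaving out UUO replicate 5 reduced the number of pairs that passed to 2.

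**Figure D3:**
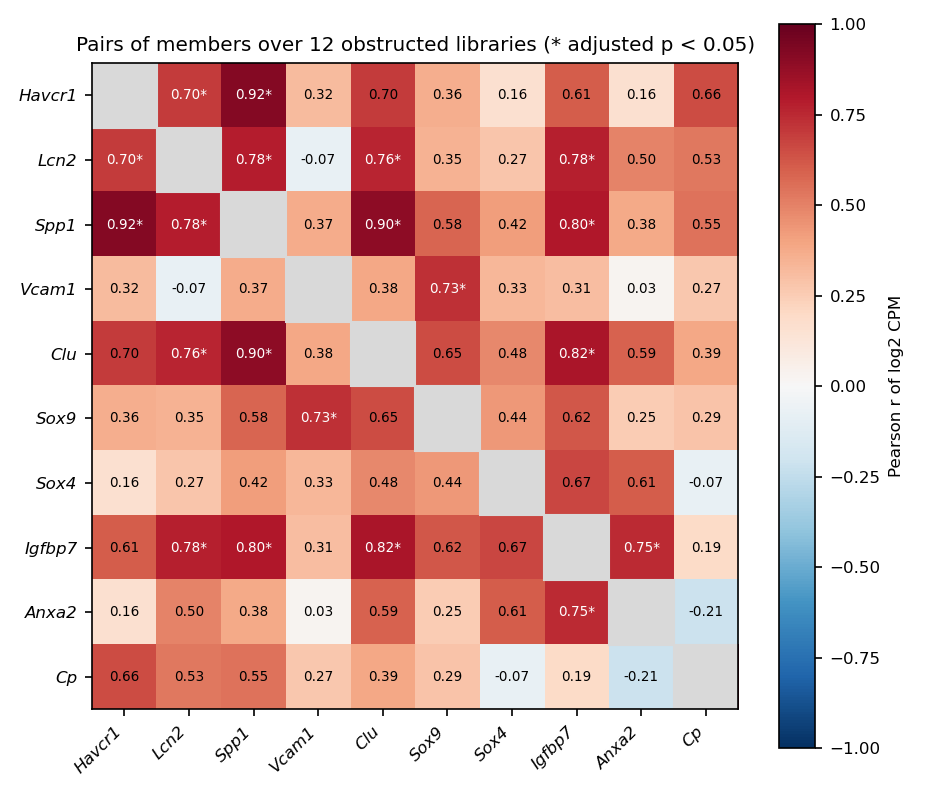
Pearson r of log2 CPM for each pair of the 10 members over the 12 obstructed libraries, with red for positive and blue for negative values, and stars for the 10 pairs that passed. The highest value is 0.92 for Havcr1 with Spp1. Among Havcr1, Lcn2, Spp1, Clu and Igfbp7 all pairs passed except Havcr1 with Clu (0.70) and with Igfbp7 (0.61). Igfbp7 with Anxa2 (0.75) and Vcam1 with Sox9 (0.73) passed as well.

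Members were also set beside markers of 4 cell types, as the mean standardised log2 CPM of each list over the 12 obstructed libraries. Of the 40 relations 8 passed an adjusted p of 0.05, all positive. In the 9 libraries of series 3 and 4, 7 passed, among them Lcn2 and Clu with collecting duct markers, which were not among the 8. Havcr1 followed the proximal tubule markers, with r = 0.958 (adjusted permutation p = 0.0004) and rho = 0.979 (adjusted permutation p = 0.0004). The r was 0.972 without the 2 libraries farthest from the median of the markers, 0.935 within UUO_Si, 0.994 within UUO and 0.966 in the 9 libraries. With single markers it ran from 0.785 for the water channel gene Aqp1 to 0.943 for Hnf4a, a transcription factor of mature proximal tubule. Thus among obstructed kidneys Havcr1 was high where transporter and other proximal tubule genes were high.

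Against sham, the same proximal tubule markers went the other way from Havcr1. All 12 were lower in each obstructed group, where 25.5% to 26.4% of all tested genes were called lower. Their summed level was 832 to 2368 CPM in UUO_Si and 1061 to 2021 CPM in UUO libraries, against 16767 to 20305 CPM in sham libraries. UUO_Si replicate 5 had the lowest Havcr1 of the obstructed libraries (61.7 CPM) and the lowest proximal tubule sum (832 CPM). The highest sum (2368 CPM) was in UUO_Si replicate 6, with Havcr1 at 225 CPM. The part of cell numbers in these relations was not tested.

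Spp1 followed the same markers (r = 0.956, adjusted permutation p = 0.0004, rho = 0.937), with 0.920 without the 2 farthest libraries and 0.890 in the 9 libraries (adjusted permutation p = 0.0308). Clu (r = 0.791, adjusted permutation p = 0.0164) and Lcn2 (r = 0.709, adjusted permutation p = 0.0492) also passed with proximal tubule markers over the 12 libraries. In the 9 libraries their r was 0.457 and 0.139, and neither passed. Instead, in the 9 libraries Lcn2 (r = 0.825, adjusted permutation p = 0.0334) and Clu (r = 0.798, adjusted permutation p = 0.0459) passed with the collecting duct markers. Over all 12 libraries these had been 0.316 and 0.538, with adjusted permutation p of 0.490 and 0.172. All 8 collecting duct markers were lower in each obstructed group, where 25.5% to 26.4% of all tested genes were called lower. They summed to 200.035 to 311 CPM in UUO_Si, 186 to 259 CPM in UUO and 548 to 639 CPM in sham.

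Sox9 followed macrophage markers, with r = 0.836 (adjusted permutation p = 0.0051), rho = 0.909 (adjusted permutation p = 0.00187), 0.878 without the 2 farthest libraries and 0.945 in the 9 libraries (adjusted permutation p = 0.0012). With single macrophage markers r ran from -0.02 for Mrc1, the mannose receptor, to 0.884 for C1qa, a complement component. Igfbp7 followed macrophage markers (r = 0.870, adjusted permutation p = 0.00347, rho = 0.797) and fibroblast markers (r = 0.795, adjusted permutation p = 0.0164, rho = 0.860). In the 9 libraries Igfbp7 had r = 0.734 with macrophage markers (adjusted permutation p = 0.125) and 0.872 with fibroblast markers (adjusted permutation p = 0.0012). Single markers did not all share this: over the 12 libraries its r ran from -0.04 for Mrc1 to 0.856 for Adgre1 among macrophage markers, and from -0.25 for Pdgfra, a growth factor receptor gene, to 0.914 for Lum, a matrix proteoglycan gene, among fibroblast markers. Over the 12 libraries Anxa2 followed fibroblast markers (r = 0.752, adjusted permutation p = 0.0189, rho = 0.839, 0.745 in the 9 libraries). Within UUO this r was 0.816, but within UUO_Si it was 0.208. It was 0.540 (permutation p = 0.1) once UUO replicates 4 and 5 were left out, so its size depends on the libraries included. With collecting duct markers Anxa2 had r = 0.861 within UUO and 0.963 within UUO_Si. Over the 12 libraries that r was 0.432 (adjusted permutation p = 0.278).

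Macrophage markers, 10 of 10 higher in each obstructed group, summed to 978 to 1463 CPM in UUO_Si, 1074 to 1388 CPM in UUO and 128 to 200 CPM in sham. Fibroblast markers, 8 of 8 higher in each obstructed group, summed to 4761 to 6727 CPM in UUO_Si, 5582 to 10510.0 CPM in UUO and 354 to 523 CPM in sham. None of these markers was at 0 in any library, and their part in the members' changes was not tested. Loop and distal tubule markers summed to 1461 to 2657 CPM in UUO_Si, 1512 to 1782 CPM in UUO and 5967 to 6415 CPM in sham. Of the 8, 7 were lower in each obstructed group, while 1 was called higher in UUO_Si and 1 did not pass in UUO. Smooth muscle and urothelium markers also differed between kidneys, at 402 to 569 and 25.2 to 101 CPM in UUO_Si, 523 to 1226 and 31.3 to 164 CPM in UUO, and 338 to 670 and 6.30 to 19.0 CPM in sham. Of 6 smooth muscle markers 2 were higher and 1 lower in UUO_Si and 4 higher in UUO against sham. Of 5 urothelium markers 3 were higher in UUO_Si and 5 in UUO. Beside all these marker counts, 27.2% of all tested genes were called higher and 25.5% lower in UUO_Si, and 27.5% and 26.4% in UUO. Without the receptor-gene libraries 2 smooth muscle markers were higher in each group, and 1 urothelium marker was higher in UUO_Si and 3 in UUO.

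**Figure D4:**
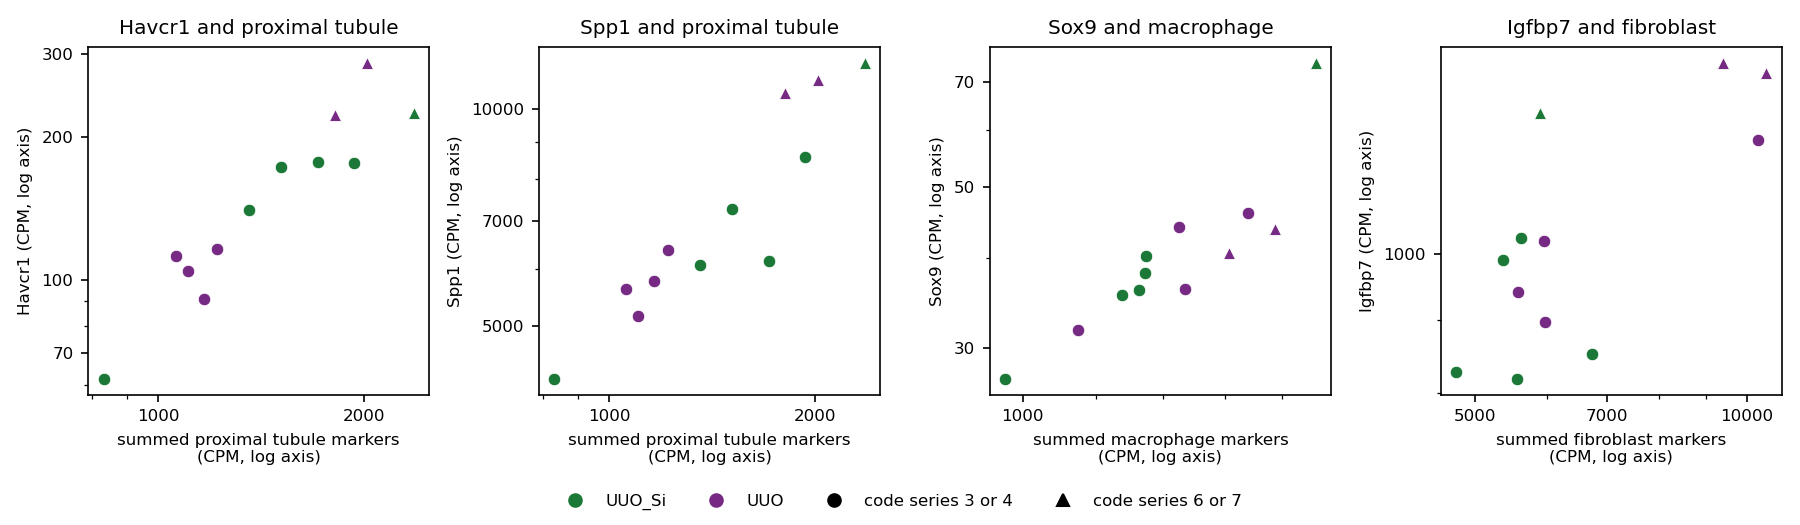
Level of Havcr1, Spp1, Sox9 and Igfbp7 in CPM against the summed CPM of proximal tubule, macrophage or fibroblast markers in the 12 obstructed libraries (log axes), with UUO_Si in green, UUO in purple and code series 6 and 7 as triangles. Havcr1 and Spp1 climb with the proximal tubule markers, from 832 CPM to 2368 CPM on the axis of the markers.

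Sequencing depth was set beside the members after their levels had been seen. Sox4 followed the total counts of the 12 obstructed libraries (r = 0.808, adjusted permutation p = 0.0127 over 10 relations, rho = 0.762 with adjusted permutation p = 0.0518). In the 9 libraries of series 3 and 4 the r of Sox4 was 0.760, and without the 2 libraries farthest from the median depth it was 0.647. For the other 9 members neither r nor rho passed. The r was 0.655 for Igfbp7 (adjusted permutation p = 0.109), 0.611 for Anxa2 (adjusted permutation p = 0.115) and -0.400 for Cp (adjusted permutation p = 0.497). In the 9 libraries these lay at 0.747, 0.551 and -0.623. UUO libraries were mostly deeper than UUO_Si libraries, and the part of depth in the levels of these members and of Sox4 was not tested.

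The 3 genes whose deviations from the mean of each diet group were most like those of a member were searched among 12800 genes over the 12 obstructed libraries, and are a description of these libraries. Havcr1 was closest to Xylb (r = 0.976), a xylulose kinase gene, Cyp2a4 (0.972), a cytochrome P450 gene, and Timd2 (0.971), with which it shares sequence. In the 9 libraries of series 3 and 4 these r were 0.964, 0.943 and 0.946. Xylb averaged 44.7 CPM in UUO_Si and 40.7 CPM in UUO, against 431 CPM in sham, whereas Timd2 averaged 5.76, 6.40 and 1.89 CPM. Spp1 was closest to Gm12070, Slc13a3, which encodes a dicarboxylate transporter and is one of the proximal tubule markers, and Phyh, a gene of peroxisomal lipid breakdown (r = 0.981 to 0.982, and 0.937 to 0.947 in the 9 libraries). Slc13a3 averaged 18.6 CPM in UUO_Si and 18.9 CPM in UUO, against 512 CPM in sham. Lcn2 was closest to Smim14, Gstk1 and Egr2 (0.960 to 0.964, and 0.874 to 0.906 in the 9), and Clu to Ninj1 and Rps19 (0.977 each, and 0.956 and 0.960 in the 9). Igfbp7 was closest to Gnb1, Polr1d and Rpl11 (0.988 to 0.994, and 0.969 to 0.982 in the 9).

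Sox9 was closest to Cd83 (r = 0.976), which encodes a surface protein of activated immune cells, Nudt9 (0.967) and Cxcl16 (0.951), a chemokine gene, with 0.936, 0.934 and 0.966 in the 9 libraries. Cd83 averaged 20.9 CPM in UUO_Si and 16.8 CPM in UUO, against 1.07 CPM in sham. Vcam1 was closest to Ly6e, Tapbp, which encodes a protein of antigen loading, and Gltscr2 (0.925 to 0.944, and 0.920 to 0.938 in the 9). Anxa2 was closest to Timp3, Panx1 and Aif1l (0.931 to 0.936, and 0.935 to 0.969 in the 9). Sox4 was closest to Stk26, Nomo1 and Afap1 (0.8996 to 0.923, and 0.741 to 0.867 in the 9), and Cp to Dnajc22, Dcun1d1 and Golt1b (0.898 to 0.953, and 0.835 to 0.922 in the 9).

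Other genes used as injury biomarkers were read beside the members. Of 12 listed, 9 could be tested, and 7 were higher and 2 lower in UUO against sham, with a median log2 fold change of 1.10. In UUO_Si against sham 6 were higher and 2 lower (median 0.97). Of all tested genes 27.5% were called higher and 26.4% lower in UUO, and 27.2% and 25.5% in UUO_Si. The lower calls were thus at a share near that of all tested genes. Without the receptor-gene libraries the counts were 5 higher and 2 lower in each. Dkk3, a secreted Wnt modulator, rose by 2.13 ± 0.16 in UUO_Si and 2.31 ± 0.16 in UUO on the log2 scale. Timp2, a metalloproteinase inhibitor (1.82 ± 0.22 and 2.23 ± 0.22), Ccl2, a monocyte chemokine (3.43 ± 0.45 and 3.61 ± 0.44), and B2m, the light chain of class I molecules (2.15 ± 0.27 and 2.04 ± 0.27), also rose. Cst3, which encodes cystatin C, changed least (0.71 ± 0.12 and 0.75 ± 0.12). The 2 that fell are markers of distal nephron health: Egf, at 43.9 to 112 CPM in UUO_Si, 38.6 to 70.1 CPM in UUO and 3314 to 3912 CPM in sham, and Umod, which encodes uromodulin, at 704 to 1626 CPM, 809 to 1072 CPM and 1898 to 2132 CPM. The log2 fold change of Egf was -5.51 ± 0.27 in UUO_Si and -6.00 ± 0.27 in UUO against sham. That of Umod was -0.72 ± 0.21 and -1.07 ± 0.21. Every named gene here had an edgeR adjusted p of at most 0.00774 in each comparison.

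Genes of injured tubule cells rose as well. Of 20 tested, 18 were higher and 0 lower in each obstructed group against sham, where 27.2% to 27.5% of all tested genes were called higher. The medians were 1.83 in UUO_Si and 1.77 in UUO, and the count was again 18 without the receptor-gene libraries. Krt20, a keratin gene, had the largest change of those named, at 48.9 to 70.7 CPM in UUO_Si, 44.2 to 58.8 CPM in UUO and 0.143 to 2.65 CPM in sham (log2 fold change 5.76 ± 0.35 and 5.52 ± 0.35). Cd44, the hyaluronan receptor, changed by 4.22 ± 0.19 and 4.34 ± 0.19, and Krt19 by 3.82 ± 0.25 and 4.02 ± 0.25. Dcdc2a, a doublecortin family gene (3.31 ± 0.17 and 3.21 ± 0.17), Vim, the intermediate filament vimentin (2.42 ± 0.16 and 2.70 ± 0.16), and Krt18 (2.41 ± 0.17 and 2.55 ± 0.18) followed. All of these had an edgeR adjusted p of at most 7.22e-09.

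Binding partners and receptors of the members' products held calls in both directions. Of 20 tested, 13 were higher and 4 lower in each obstructed group against sham, with medians of 1.03 in UUO_Si and 1.047 in UUO. Of all tested genes 27.2% to 27.5% were called higher and 25.5% to 26.4% lower. Without the receptor-gene libraries 13 were higher and 5 lower. The integrin genes Itgav and Itgb1, whose products bind osteopontin, changed by 1.14 ± 0.10 and 1.38 ± 0.14 in UUO_Si and by 1.06 ± 0.10 and 1.49 ± 0.14 in UUO on the log2 scale. Itga9, whose product binds both osteopontin and VCAM-1, changed by 0.81 ± 0.10 and 1.013 ± 0.10. Cd93, whose product is a surface lectin-like receptor, changed by 1.24 ± 0.11 and 1.34 ± 0.11. In iron handling, Trf, which encodes transferrin, was higher (1.68 ± 0.17 and 1.82 ± 0.18) while the transferrin receptor gene Tfrc was lower (-1.72 ± 0.17 and -1.78 ± 0.17).

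Receptor genes that fell included Slc22a17, which encodes a receptor for NGAL, at 8.58 to 17.9 CPM in UUO_Si, 7.94 to 18.0 CPM in UUO and 18.0 to 26.9 CPM in sham. Its log2 fold change was -0.77 ± 0.26 and -0.78 ± 0.25 (edgeR adjusted p = 0.0178 and 0.0151), and without sham replicate 1 the UUO value no longer passed (edgeR adjusted p = 0.110). Vldlr, a lipoprotein receptor gene (-0.71 ± 0.13 and -0.62 ± 0.13), and Igf1r, the receptor gene for insulin-like growth factor (-0.54 ± 0.18 and -0.69 ± 0.18), were also lower. With only series 1, 6 and 7 Vldlr did not pass in UUO (-0.16, edgeR adjusted p = 0.320). Lcn2 was thus called higher in both groups and Slc22a17 lower, the latter not in UUO without sham replicate 1. A relation between these changes was not tested.

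Among relatives of the members both directions occurred, the lower calls at a share near that of all tested genes. Of 26 family genes 24 could be tested, and 14 were higher and 5 lower in each obstructed group against sham (medians 0.87 in UUO_Si and 0.90 in UUO). Of all tested genes 27.2% to 27.5% were called higher and 25.5% to 26.4% lower. Without the receptor-gene libraries 14 were higher and 6 lower in UUO_Si, and 15 higher and 7 lower in UUO. Among annexins, Anxa1 (2.56 ± 0.15 in both), Anxa3 (1.85 ± 0.11 and 1.93 ± 0.11) and Anxa5 (1.35 ± 0.11 and 1.36 ± 0.11) rose with Anxa2. Anxa13, an annexin of epithelial cells, fell (-0.94 ± 0.25 and -1.02 ± 0.24), though with only series 1, 6 and 7 it did not pass in UUO (edgeR adjusted p = 0.116). Anxa11 was called lower in UUO alone, and only just (-0.25 ± 0.11 with edgeR adjusted p = 0.0584 in UUO_Si, -0.29 ± 0.11 with edgeR adjusted p = 0.0328 in UUO), and in 6 alternatives it missed the threshold there as well (edgeR adjusted p = 0.0523 to 0.835). These were upper-quartile scaling, no filter, only the 2 groups, the replicate block, no series 6 and 7, and only series 1, 6 and 7. It also missed without sham replicate 1 or 2 and without UUO replicate 2 or 6 (edgeR adjusted p = 0.0536 to 0.237). Icam1, an adhesion gene related to Vcam1 in role, rose by 2.22 ± 0.16 in UUO_Si and 2.30 ± 0.16 in UUO on the log2 scale.

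Relatives of Igfbp7 were called in both directions. Igfbp1 stood at 1.76 to 5.47 CPM in UUO_Si, 1.99 to 4.90 CPM in UUO and 28.5 to 44.4 CPM in sham (log2 fold change -3.43 ± 0.27 and -3.38 ± 0.26, edgeR adjusted p = 1.56e-08 and 1.21e-08). Igfbp5 stood at 224 to 376 CPM in UUO_Si, 295 to 594 CPM in UUO and 709 to 901 CPM in sham (-1.36 ± 0.19 and -0.96 ± 0.19, edgeR adjusted p = 1.09e-05 and 0.000379), and with only series 1, 6 and 7 it did not pass in UUO (-0.31, edgeR adjusted p = 0.127). Igfbp2 and Igfbp6, added here after their values were seen, were higher. Igfbp2 stood at a log2 fold change of 2.69 ± 0.47 in UUO_Si and 3.76 ± 0.47 in UUO (edgeR adjusted p = 0.000141 and 3.58e-06). Igfbp6 stood at 1.92 ± 0.77 and 2.73 ± 0.77 (edgeR adjusted p = 0.0442 and 0.00633), and it missed the threshold in 10 of 27 alternatives in UUO_Si (adjusted p = 0.0572 to 0.190) and with limma-voom (0.0576) and the replicate block (0.0717) in UUO. Igfbp4 was called lower in UUO_Si (-0.81 ± 0.26, edgeR adjusted p = 0.0140) and not in UUO (-0.52 ± 0.26, edgeR adjusted p = 0.102). Igfbp4 was called in 25 of 27 alternatives in UUO_Si and in 5 of 27 in UUO. Without sham replicate 1 it missed in UUO_Si (edgeR adjusted p = 0.0585), and without the receptor-gene libraries it passed in UUO (-0.93, edgeR adjusted p = 0.000656). With only series 1, 6 and 7 its values were 0.063 in UUO_Si and 0.24 in UUO. SOX genes were likewise called in both directions. Sox8, added after its values were seen, rose by 1.57 ± 0.29 in UUO_Si and 1.51 ± 0.29 in UUO (edgeR adjusted p = 0.000206 and 0.000260; 0.174 in UUO_Si with only series 1, 6 and 7), and Sox11, from the injured tubule genes, by 2.99 ± 0.36 and 3.04 ± 0.36 (edgeR adjusted p = 2.63e-06 and 1.90e-06). The transcription factor gene Sox6 was lower, at 58.7 to 74.2 CPM in UUO_Si, 50.6 to 65.7 CPM in UUO and 127 to 152 CPM in sham (-1.06 ± 0.10 and -1.24 ± 0.10, edgeR adjusted p = 8.86e-08 and 1.28e-08). In UUO_Si against UUO no gene of these 4 lists passed the edgeR test. At an unadjusted p under 0.05 there were 2 of 9 other biomarkers, 2 of 20 injured tubule genes, 2 of 20 partners and 3 of 24 family genes, against 626 of 16752 over all. Several marker lists held larger shares at this unadjusted level, with 7 of 8 fibroblast, 6 of 6 smooth muscle, 3 of 5 urothelium, 3 of 8 loop and distal tubule and 2 of 8 collecting duct markers, none of them past the adjusted threshold. The medians in UUO_Si against UUO were -0.55 for fibroblast, -0.87 for smooth muscle, -1.01 for urothelium, 0.38 for loop and distal tubule and 0.18 for collecting duct markers.

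**Figure D5:**
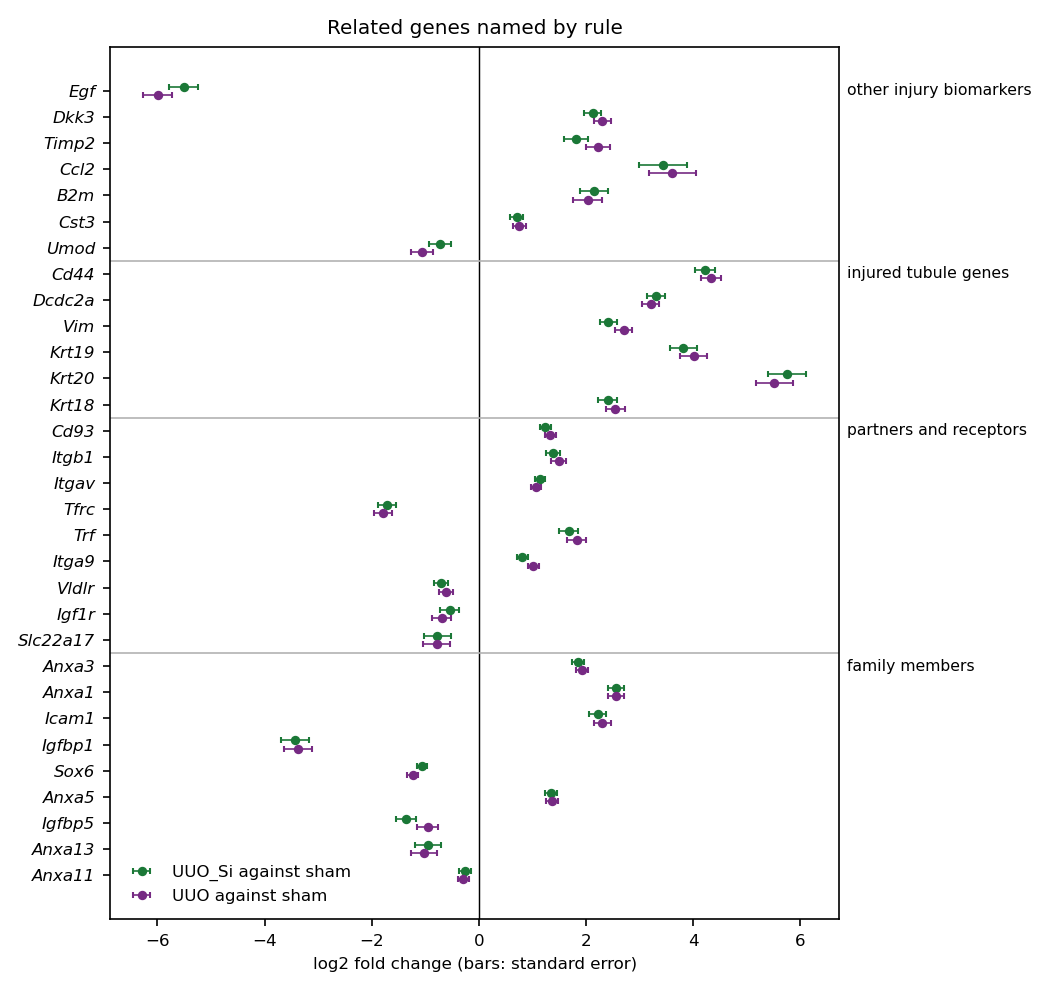
Log2 fold change with its standard error for the named genes of the 4 lists in UUO_Si and UUO against sham. Points right of 0 are higher after obstruction, and the values run from -6.00 for Egf in UUO to 5.76 for Krt20 in UUO_Si.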

How the data were processed

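Kidney RNA of 15 mouse libraries was analysed from a deposited table of gene values. The members and the gene lists were chosen with earlier results of these data known. Per the labels, RNA was made into libraries with a SMARTer stranded kit. The deposited values are unnormalised expected counts, some of them fractional, and were rounded here. Per the submitters' processing notes, mm10, TopHat2 2.1.1 and Cuffdiff 2.2.1 were used. Which step each served, which annotation was counted and with which strand setting is not given in the sources used here. Of the symbols, 95.7% matched GENCODE M21 on GRCm38, which gave exon lengths and overlaps.

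Genes passing edgeR's filter (minimum count 10) were fitted in a single model of all 15 libraries and 3 groups with TMM scaling in edgeR 4.0.16 (R 4.3.3, quasi-likelihood test). P-values were adjusted with Benjamini-Hochberg over 16752 genes and called at 0.05. CPM are per 1000000 counts of the scaled library size, and log2 CPM used a prior count of 2. The standard error is the log2 fold change over the square root of F. Correlations used permutation tests with 100000 resamples in scipy 1.17.1, or exact ones for 6 libraries. The marker score is the mean of standardised log2 CPM. All members are named. Of each list of other genes, up to 6 with the smallest p in UUO against sham and those called against the majority are named. For each member the 3 most similar genes with a mean of at least 5 CPM are named, except 1 gene that is not reported here. Alternatives were RLE and upper-quartile scaling, other filters, DESeq2 1.42.0, limma-voom (limma 3.58.1), and left-out libraries. Steps were tested on simulated data. Nothing says whether libraries came from separate animals beyond their replicate numbers, so p-values measure the spread between these samples. No 2 libraries held identical values, and their highest correlation was 0.987. Replicate numbers were not treated as pairs.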

Additional observations from a re-analysis of the deposited data

Results flagged for a closer look

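Sox9 in UUO_Si replicate 6 stood at 74.3 CPM, apart from the other 5 UUO_Si libraries, the next of which was at 40.2 CPM. Its distance to the next library was 0.725 of the range of the group, above Dixon's 95% critical value for 6 libraries. Of 20 such sets of 6 libraries (10 members in 2 groups) this was the one past its limit, and chance alone passes about 1 in 20. The same library had the highest macrophage marker sum of the obstructed libraries (1463 CPM) and is one of the receptor-gene libraries. The part of either in the Sox9 level was not tested. Without it the log2 fold change of Sox9 in UUO_Si against UUO was -0.19, against 0.05 with it.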

How the results depend on the processing

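The 9 calls of members in UUO and in UUO_Si against sham, and the 0 calls between the diets, held under every alternative tried, leave-one-out fits included, except that Igfbp7 was called as well (10 members) when only code series 1, 6 and 7 were fitted. Between the diets DESeq2 called 2 genes of all tested, no other alternative any. Upper-quartile scaling raised the higher calls in UUO against sham to 5034 of 9007, against 4609 of 9036, and the fit without a filter moved the median of all genes to -0.20 in UUO and -0.23 in UUO_Si against sham. Replicate numbers did not pair the libraries: the correlations of 12 same-numbered pairs ran from -0.39 to 0.75, 6 were over 0.1, and 2 of 15 libraries correlated best with their own number. With the replicate block 8433, 8268 and 0 genes were called in UUO against sham, UUO_Si against sham and UUO_Si against UUO, of which 9, 9 and 0 were members, Igfbp7 in UUO_Si against sham stood at -0.094 and Sox9 in UUO_Si against UUO at -0.0081.

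Small member values changed sign, none of them called, and so did the values of Igfbp4, which is not a member. The cause was not tested. Igfbp7 in UUO_Si against sham became -0.021 with a minimum count of 30, -0.032 with limma-voom, -0.090 without the receptor-gene libraries and -0.068 without code series 6 and 7. In UUO_Si against UUO, limma-voom gave 0.14 for Lcn2, 0.10 for Spp1, -0.014 for Vcam1 and -0.13 for Sox9. Without the receptor-gene libraries these were 0.20, 0.17, -0.028 and -0.16, and the same without series 6 and 7. With only series 1, 6 and 7 Havcr1 was -0.16, Spp1 0.13 and Sox4 0.0085, and Igfbp4, called at first in UUO_Si, was 0.063 in UUO_Si and 0.24 in UUO against sham. Leaving out each library in turn gave -0.069 to 0.070 for Igfbp7 in UUO_Si against sham. In UUO_Si against UUO it gave -0.10 to 0.29 for Havcr1, -0.21 to 0.10 for Lcn2, -0.20 to 0.12 for Spp1, -0.025 to 0.093 for Vcam1, -0.075 to 0.13 for Clu and -0.19 to 0.15 for Sox9.

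Pairs of members that passed numbered 10 over the 12 libraries, 16 from deviations from the diet means, 0 in UUO alone, 0 in UUO_Si alone, 0 without the receptor-gene libraries, and 2 to 12 with a library left out. Relations with markers numbered 8, then 16, 0 and 0 in the first 3 of these settings, 7 without the receptor-gene libraries and 5 to 11 with a library left out, the lowest in both cases without UUO replicate 5. The 7 were not all among the 8. With 6 libraries the smallest exact p of a correlation is 0.00139, and a single relation at that p could not pass after adjustment. The lowest adjusted exact p was 0.0625 over the pairs and 0.0556 over the marker relations. The 0 counts within each diet group therefore decide nothing, and the fits of 9 libraries also have less power. Sham rests on 3 libraries and on as few as 2 counts for Havcr1, which limits the precision of its fold change.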
